A study of Mus musculus with 6 samples.

Results

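The genes described here serve antigen presentation by major histocompatibility complex (MHC) class II molecules. A list of 8 genes was set, and a gene counted as measured when a probe set on the array was annotated with that gene alone; for a gene with several such probe sets the brightest over the 6 arrays would stand for it. By this rule 7 of the 8 genes were measured, out of 22180 genes in all, each by 1 probe set: H2-Aa, H2-Ab1, H2-Eb1, Ciita, H2-DMa, H2-Oa and H2-Ob. The invariant chain gene Cd74 was left out, because its probe set is annotated with a microRNA gene as well. For H2-Oa, 1 further probe set is annotated with another gene as well, and its values were not used.

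RNA came from DP42 cells, a mouse line of multiple myeloma, a cancer of plasma cells. It was taken after 24 h in 3 kinds of culture, with 2 arrays of each: DP42 cells alone, DP42 cells with mouse B cells, which the design names as the control, and DP42 cells with mouse neutrophils, which the labels also call IMC or myeloid cells. Flow sorting split the co-cultures into their populations ahead of lysis, and the arrays are labelled as DP42 RNA. The titles of the co-culture arrays, however, name only the partner cells (B-cells or IMCs, co-cultured), while their descriptions name myeloma co-cultured with those cells. All groups are the same line, and the labels used here give neither its MHC haplotype nor the strain or tissue of the partner cells, nor do they say whether the arrays within a group are separate cultures; a p-value here reflects the spread among these arrays alone, which may be technical.

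Class II molecules are pairs of an alpha and a beta chain that carry peptides from endosomes to the cell surface for CD4 T cells. The invariant chain fills the groove of new pairs, lysosomal proteases trim it away, H2-DM exchanges its last fragment for a peptide, and H2-O restrains H2-DM in B cells. Ciita, the class II transactivator, is the master regulator of these genes. It binds no DNA itself and docks on proteins (the RFX complex, CREB and NF-Y) that sit on a conserved X box and Y box in the promoter. B cells make class II constitutively, and the plasma cell repressor Blimp-1, encoded by Prdm1, silences Ciita as B cells mature into plasma cells.

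The promoter windows were searched for letters of those boxes. RefSeq windows (GRCm38.p6, 250 bases before to 50 after the gene start) were at hand for 5 of the 8 genes, in 6 windows. The search covered both strands for GCAAC, a core of the X box, followed after 15 to 35 bases by TGATTGG, a Y box with the inverted CCAAT sequence; these letters were chosen after the windows were read. The pair was present in the windows of H2-Aa, H2-Eb1, H2-Oa and H2-Ob, and in 0.204% of all 32851 windows (67 windows). GCAAC alone was in 35.2% of all windows and TGATTGG alone in 7.82%. The stretches below are shown because they hold the letters of the X and Y boxes, the elements through which Ciita is known to work; capitals mark GCAAC and TGATTGG, and each reads 5′ to 3′ on the strand of the gene.
H2-Aa, chr17:34287861-34287910, minus strand: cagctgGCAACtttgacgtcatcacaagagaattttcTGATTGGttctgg
H2-Eb1, chr17:34305770-34305818, plus strand: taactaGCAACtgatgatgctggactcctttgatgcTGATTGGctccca
H2-Oa, chr17:34092297-34092346, plus strand: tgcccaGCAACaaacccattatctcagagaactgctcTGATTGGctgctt
H2-Ob, chr17:34238812-34238858, plus strand: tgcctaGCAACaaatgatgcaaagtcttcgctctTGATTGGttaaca

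The spacing of the pair varied little among these promoters. Between GCAAC and TGATTGG lay 26 bases in H2-Aa, 25 in H2-Eb1, 26 in H2-Oa and 23 in H2-Ob. TGATTGG began 50, 61, 45 and 59 bases before the gene start. The tandem copy H2-Eb2, not on the list of 8, held the pair with 25 bases between, while the windows of H2-DMb1 and H2-DMb2 held TGATTGG but not GCAAC. Neither of the 2 windows of H2-DMa held the pair; 1 of them held GCAAC, and none TGATTGG. A match is a description of letters and not a measured binding site.

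Values below are log2 expression values. Array medians over all probe sets lay between 7.09 and 7.22, and lower quartiles between 5.96 and 6.15. Over all genes the arrays cultured alone correlated at r = 0.997, those with neutrophils at 0.997 and those with B cells at 0.992, which is lower than the 0.996 between B-cell replicate 1 and neutrophil replicate 1. Differences were tested with limma over all genes, and a gene is called changed at a Benjamini-Hochberg adjusted p under 0.05. Neutrophil co-culture against culture alone called 331 genes (1.49% of those tested), neutrophil against B-cell co-culture 11 (0.0496%), and B-cell co-culture against culture alone 0 (0%, with 869 at an unadjusted p under 0.05).

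DP42 cells carried part of the B-lineage transcripts beside part of those of plasma cells. Cd79b, the signalling chain of the B-cell receptor, read 12.48 and 12.52 in cells cultured alone, and Pax5, the B-cell identity factor that Blimp-1 represses, 11.00 and 10.95. Other mature B cell genes were dim: Ms4a1, the gene of CD20, read 6.33 on both alone arrays and the IgE receptor gene Fcer2a 5.80 and 5.82, and Cr2 and Ccr6 also lay below the array medians. Among plasma cell genes Slamf7, a surface receptor used as a myeloma target, read 11.96 on both alone arrays, while Jchain, which joins IgM and IgA subunits, read 5.45 and 5.37. Prdm1 read 6.70 and 6.78, below the medians of the arrays. Jchain and Fcer2a lay below the lower quartiles, so both identities were read from part of their markers.

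No class II gene was called changed in any of the 3 comparisons. Of the 7 genes 6 read 7.93 or higher on every array, and H2-DMa lay close to the array medians, between 7.25 and 7.51. In limma 0 of the 7 genes passed in each, against the backgrounds of 1.49%, 0.0496% and 0% above. At an unadjusted p under 0.05 there were 0 of 7 for neutrophils against alone (17.7% of all genes), 1 of 7 for neutrophils against B cells (20.1%) and 1 of 7 for B cells against alone (3.92%). The differences were small: the 95% intervals of all 21 differences, not adjusted for their number, lay between 0.726-fold and 1.40-fold. A change of 1.5-fold or a fall of the same size was outside each of these intervals, whereas smaller changes were not excluded. In such bulk samples fewer cells with a transcript and less of it per cell cannot be told apart.

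**Figure D1:**
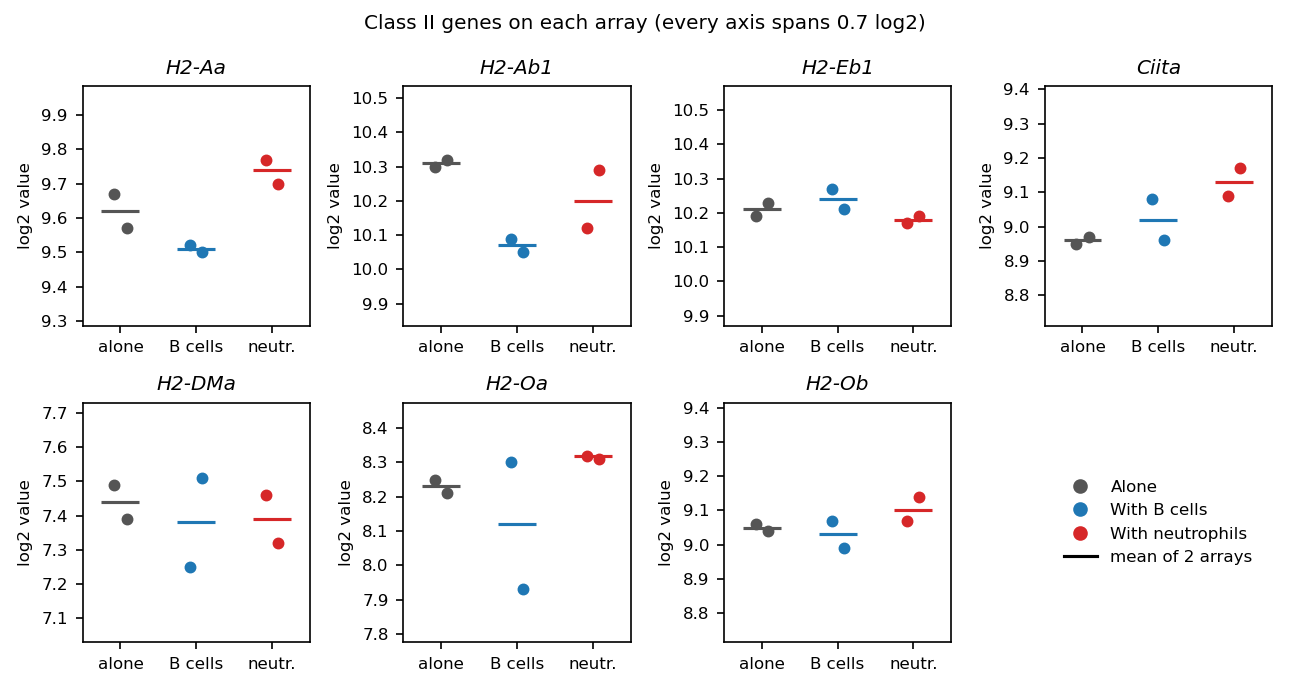
Log2 expression value (y axis) of the 7 measured class II genes on each array, by culture (x axis); points are arrays and lines the means of 2 arrays, and all panels span the same range. H2-Aa had both neutrophil arrays (9.77 and 9.70) above and both B-cell arrays (9.52 and 9.50) below the alone arrays, while H2-Eb1 lay between 10.17 and 10.27 on all arrays.

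The classical chains, which present peptide at the surface, did not move together. H2-Aa, the alpha chain of I-A (probe set 17343813), read 9.67 and 9.57 alone, 9.52 and 9.50 in B-cell co-culture and 9.77 and 9.70 in neutrophil co-culture. The 3 groups of this gene did not overlap, with neutrophil co-culture highest and B-cell co-culture lowest, an arrangement found in 3.13% of all genes. The difference of neutrophils from B cells was 0.22 ± 0.09 (SE), or 1.17-fold with a 95% interval of 1.01 to 1.35 (adjusted p = 0.238 in limma). From culture alone, neutrophil arrays differed by 0.12 ± 0.09 (adjusted p = 0.505) and B-cell arrays by -0.11 ± 0.09 (adjusted p = 0.9999). None of these passed.

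H2-Ab1, the beta chain that pairs with H2-Aa (probe set 17336494), had another order. It read 10.30 and 10.32 alone, 10.09 and 10.05 in B-cell co-culture and 10.12 and 10.29 in neutrophil co-culture. Culture alone was highest and B-cell co-culture lowest, again without overlap. The gaps were narrow: 10.29 with neutrophils beside 10.30 alone, and 10.12 with neutrophils beside 10.09 with B cells. The share of all genes in this order was not counted. The B-cell arrays differed from culture alone by -0.24 ± 0.10, or 0.846-fold with an interval of 0.726 to 0.987 (adjusted p = 0.9999). Neutrophil arrays stood at -0.11 ± 0.10 from culture alone (adjusted p = 0.561) and 0.14 ± 0.10 from B-cell arrays (adjusted p = 0.402). The latter was 0.03 ± 0.09 with quantile normalisation and 0.22 ± 0.11 with arrays centred on their medians. So the alpha and beta chain of I-A agreed in being lowest with B cells and differed in which culture was highest, with none of these steps passing the test.

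H2-Eb1, the beta chain of I-E (probe set 17336502), was the steadiest of the 7. It read 10.19 and 10.23 alone, 10.27 and 10.21 in B-cell co-culture and 10.17 and 10.19 in neutrophil co-culture, an SD of 0.04 over the 6 arrays against a median SD of 0.12 over all genes. Its differences were -0.03 ± 0.09 for neutrophils against alone (adjusted p = 0.858), -0.06 ± 0.09 for neutrophils against B cells (adjusted p = 0.691) and 0.03 ± 0.09 for B cells against alone (adjusted p = 0.9999). The groups overlapped except that both neutrophil arrays lay below both B-cell arrays. With arrays centred on their medians the neutrophil differences from both other groups turned to 0.03.

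Ciita, the transactivator (probe set 17322842), was highest with neutrophils. It read 8.95 and 8.97 alone, 9.08 and 8.96 in B-cell co-culture and 9.09 and 9.17 in neutrophil co-culture. Both neutrophil arrays lay above all other arrays, and the B-cell arrays overlapped with culture alone. The difference of neutrophils from culture alone was 0.17 ± 0.10, or 1.13-fold with an interval of 0.969 to 1.31 (adjusted p = 0.370). That from B cells was 0.11 ± 0.10 (adjusted p = 0.478), and B cells differed from culture alone by 0.06 ± 0.10 (adjusted p = 0.9999). The difference of neutrophils from B cells was 0.01 ± 0.08 with quantile normalisation and 0.20 ± 0.11 with arrays centred on their medians. None passed. The mean of the odorant and pheromone receptor genes on each array (the receptor mean) was also entered as a covariate. The neutrophil differences then turned to -0.01 ± 0.16 from culture alone and -0.03 ± 0.13 from B cells. How far the receptor mean follows the culture groups was not tested, so these fits do not show why a sign changed.

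The genes of the peptide exchange machinery differed in how steady they were. H2-DMa, the alpha chain of the H2-DM exchange factor (probe set 17336407), read 7.49 and 7.39 alone, 7.25 and 7.51 in B-cell co-culture and 7.46 and 7.32 in neutrophil co-culture. All 3 groups overlapped. Its differences were -0.05 ± 0.12 for neutrophils against alone (adjusted p = 0.833), 0.01 ± 0.12 for neutrophils against B cells (adjusted p = 0.969) and -0.06 ± 0.12 for B cells against alone (adjusted p = 0.9999). The first became 0.37 ± 0.16 with the receptor mean as a covariate, without passing.

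H2-Oa, the alpha chain of the H2-O inhibitor (probe set 17336396), read 8.25 and 8.21 alone, 8.30 and 7.93 in B-cell co-culture and 8.32 and 8.31 in neutrophil co-culture. The neutrophil arrays were above all others, and B-cell replicate 2 stood apart below. Neutrophils differed from B cells by 0.20 ± 0.13, or 1.15-fold with an interval of 0.941 to 1.40 (adjusted p = 0.356). Without B-cell replicate 1 this became 0.38 ± 0.08 (adjusted p = 0.0296), in a fit that called 5453 genes, 24.6% of those tested; without B-cell replicate 2 it was 0.02 (adjusted p = 0.966). The value thus depends on which B-cell array is kept. In these fits, and in all those below without a B-cell array, the lone B-cell array is assumed to vary like the arrays of the other groups, so their p-values hold nothing on the spread of B-cell arrays. From culture alone the neutrophil arrays differed by 0.09 ± 0.13 (adjusted p = 0.705) and the B-cell arrays by -0.11 ± 0.13 (adjusted p = 0.9999). With the receptor mean as a covariate the neutrophil differences turned to -0.38 ± 0.18 from culture alone and -0.16 ± 0.14 from B cells, without passing.

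H2-Ob, the beta chain of H2-O (probe set 17336476), was steady. It read 9.06 and 9.04 alone, 9.07 and 8.99 in B-cell co-culture and 9.07 and 9.14 in neutrophil co-culture. The neutrophil arrays lay just above culture alone and overlapped with the B-cell arrays. Differences were 0.05 ± 0.09 for neutrophils against alone (adjusted p = 0.753), 0.07 ± 0.09 for neutrophils against B cells (adjusted p = 0.620) and -0.02 ± 0.09 for B cells against alone (adjusted p = 0.9999). With quantile normalisation these turned to -0.02, -0.03 and 0.01. The SD of the pair partner H2-Oa over the 6 arrays was 0.15, the highest of the 7, beside 0.05 for H2-Ob.

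**Figure D2:**
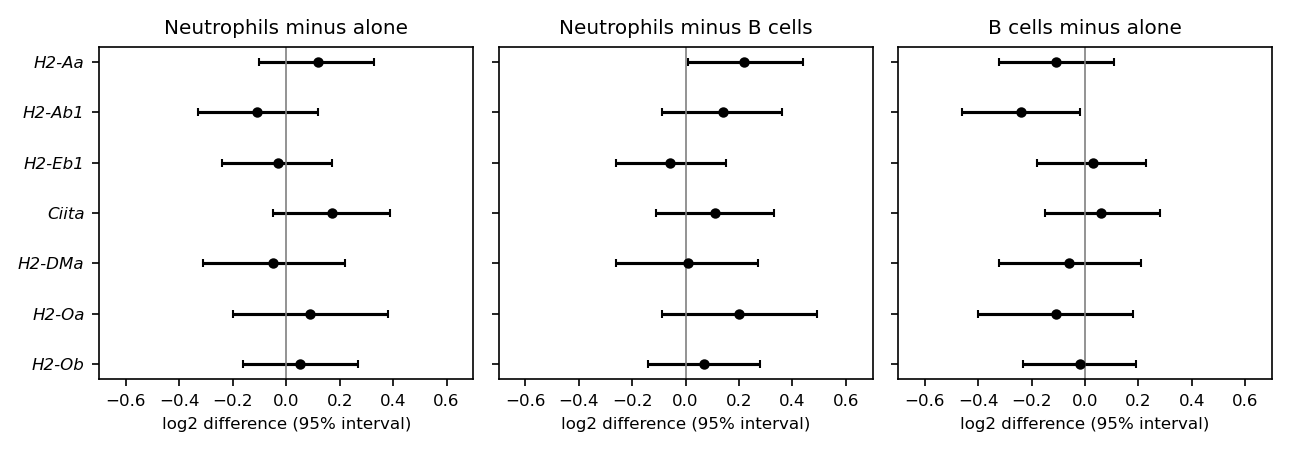
Log2 difference (x axis) of each class II gene (y axis) in the 3 comparisons, as points with 95% intervals from limma, not adjusted for the number of genes. The interval excludes 0 for H2-Aa in neutrophils minus B cells (0.22) and for H2-Ab1 in B cells minus alone (-0.24), and neither passed after adjustment.

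The shifts of the class II genes as a group are set beside those of all bright genes. All 7 lay at or above the median brightness of all genes. Against B-cell co-culture 6 of 7 were positive with neutrophils, with a median of 0.11, while 80.1% of genes at or above the median brightness were positive with a median of 0.13, and all genes had a median of 0.01. Against culture alone 4 of 7 were positive with neutrophils, with a median of 0.05, beside 79.7% and 0.11 for bright genes and 0.02 for all genes. With B cells 2 of 7 were positive against culture alone, with a median of -0.06, beside 44% and -0.01. These comparisons share control arrays and are not independent of each other.

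Arrays that did not overlap between groups were common throughout. For neutrophils against alone this held for 5 of the 7 genes, 4 higher and 1 lower, and for 63% of all genes, 35.6% higher and 27.4% lower. For neutrophils against B cells it also held for 5 of 7, 4 higher and 1 lower, against 56.7% of all genes, 30% higher and 26.7% lower. For B cells against alone it held for 2 of 7, both lower, against 27.1%, 13.5% higher and 13.5% lower. With 2 arrays a group such separation is frequent among all genes, and no test was made of the difference between these shares.

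Among the other class II chains, 0 of 4 measured genes were called in any comparison in limma (at an unadjusted p under 0.05, 1 higher for neutrophils against B cells). H2-Eb2, a second beta chain gene of the I-E type next to H2-Eb1, read 9.80 and 9.79 alone, 9.69 and 9.55 in B-cell co-culture and 9.98 and 9.95 in neutrophil co-culture. Its order was that of H2-Aa, with no overlap. The difference of neutrophils from B cells was 0.35 ± 0.10, or 1.27-fold (adjusted p = 0.158), and that from culture alone 0.17 ± 0.10 (adjusted p = 0.372). The first was 0.27 without B-cell replicate 2 (adjusted p = 0.458) and 0.42 without B-cell replicate 1 (adjusted p = 0.025). H2-Ea, the alpha chain of I-E, a pseudogene in the reference strain, stood at 0.11 ± 0.10 with neutrophils against alone (adjusted p = 0.550) and 0.07 ± 0.10 against B cells (adjusted p = 0.670).

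The beta chains of H2-DM lay below the array medians, except H2-DMb2 on neutrophil replicate 1. That value, 7.11, was within the range of the array medians (7.09 to 7.22). H2-DMb1 differed by -0.01 ± 0.10 for neutrophils against alone (adjusted p = 0.981) and by 0.08 ± 0.10 against B cells (adjusted p = 0.617). H2-DMb2 read 6.90 and 6.47 with B cells, beside 6.93 and 6.89 alone and 7.11 and 6.83 with neutrophils; neutrophils stood 0.28 ± 0.15 above B cells (adjusted p = 0.309) and 0.06 ± 0.15 above culture alone (adjusted p = 0.841). As with H2-Oa, B-cell replicate 2 was the lowest array, and the first difference was 0.07 without B-cell replicate 2 (adjusted p = 0.895) and 0.49 without B-cell replicate 1 (adjusted p = 0.0431). H2-DMb1 and H2-DMb2 are near copies, as are H2-Eb1 and H2-Eb2, and how far their probes cross-react was not tested.

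Lysosomal processing genes, which cut the invariant chain and antigens, did not pass either. Of 12 measured genes 0 were called in any comparison in limma; at an unadjusted p under 0.05, 1 was higher and 1 lower for neutrophils against B cells. Ctss, cathepsin S, the main protease for the invariant chain in B cells and dendritic cells, read 9.75 and 9.79 alone, 9.77 and 9.29 in B-cell co-culture and 9.72 and 9.77 in neutrophil co-culture. B-cell replicate 2 alone was low, so the difference of neutrophils from B cells was 0.22 ± 0.15 with it (adjusted p = 0.378), -0.02 without it and 0.46 without B-cell replicate 1 (adjusted p = 0.0233). Neutrophils differed from culture alone by -0.02 ± 0.15 (adjusted p = 0.953).

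Other proteases and the reductase of the pathway did not pass either. Ifi30, the lysosomal thiol reductase GILT, which opens disulphide bonds of antigens, read 11.84 and 11.85 alone, 11.77 and 11.73 in B-cell co-culture and 11.72 and 11.74 in neutrophil co-culture. Both co-cultures lay below culture alone, neutrophils by -0.11 ± 0.09 (adjusted p = 0.501), and neutrophils differed from B cells by -0.02 ± 0.09 (adjusted p = 0.903). Ctsl, cathepsin L, which serves this step in thymic epithelium, stood at -0.20 ± 0.11 with neutrophils against alone (adjusted p = 0.373) and -0.29 ± 0.11 against B cells (adjusted p = 0.230). Ctsh, the aminopeptidase cathepsin H, stood at 0.19 ± 0.12 (adjusted p = 0.403) and 0.25 ± 0.12 (adjusted p = 0.268). Without B-cell replicate 2 the differences from B cells were -0.14 for Ctsl (adjusted p = 0.644) and 0.09 for Ctsh (adjusted p = 0.756), and without B-cell replicate 1 they were -0.43 (adjusted p = 0.0258) and 0.41 (adjusted p = 0.0257).

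Genes of factors known to bind X and Y boxes, and of coactivators, were all positive with neutrophils, none of them passing. Binding of these proteins to the stretches printed above was not measured. Of the 10 measured promoter factors and coactivators 0 were called in any comparison in limma, with 1 higher at an unadjusted p under 0.05 for neutrophils against B cells. All 10 were positive against culture alone, with a median of 0.13, and all 10 against B cells, with a median of 0.12, near the 0.11 and 0.13 of all bright genes. Rfx5, the large subunit of the RFX complex that binds the X box, read 9.90 and 9.84 alone, 10.00 and 9.78 in B-cell co-culture and 10.01 and 10.04 in neutrophil co-culture, a difference of 0.15 ± 0.10 against alone (adjusted p = 0.452) and 0.14 ± 0.10 against B cells (adjusted p = 0.425). Its partner subunit Rfxap stood at 0.22 ± 0.13 (adjusted p = 0.395) and 0.29 ± 0.13 (adjusted p = 0.257).

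Nfyb, a histone-fold subunit of the Y box factor NF-Y, had the largest difference of the promoter factors. It read 8.95 on both alone arrays, 9.10 and 8.54 in B-cell co-culture and 9.22 and 9.35 in neutrophil co-culture. Neutrophil arrays were above all others, by 0.34 ± 0.16 against alone (adjusted p = 0.325) and 0.46 ± 0.16 against B cells (adjusted p = 0.206), and the latter was 0.18 without B-cell replicate 2 (adjusted p = 0.590) and 0.74 without B-cell replicate 1 (adjusted p = 0.0146). Kat2b, the acetyltransferase PCAF that works with Ciita, stood at 0.26 ± 0.12 against both (adjusted p = 0.316 against alone and 0.270 against B cells). With the receptor mean as a covariate the neutrophil differences of Rfx5, Rfxap, Nfyb and Kat2b were negative against both other groups. None passed, and their SEs ran from 0.13 to 0.21.

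**Figure D3:**
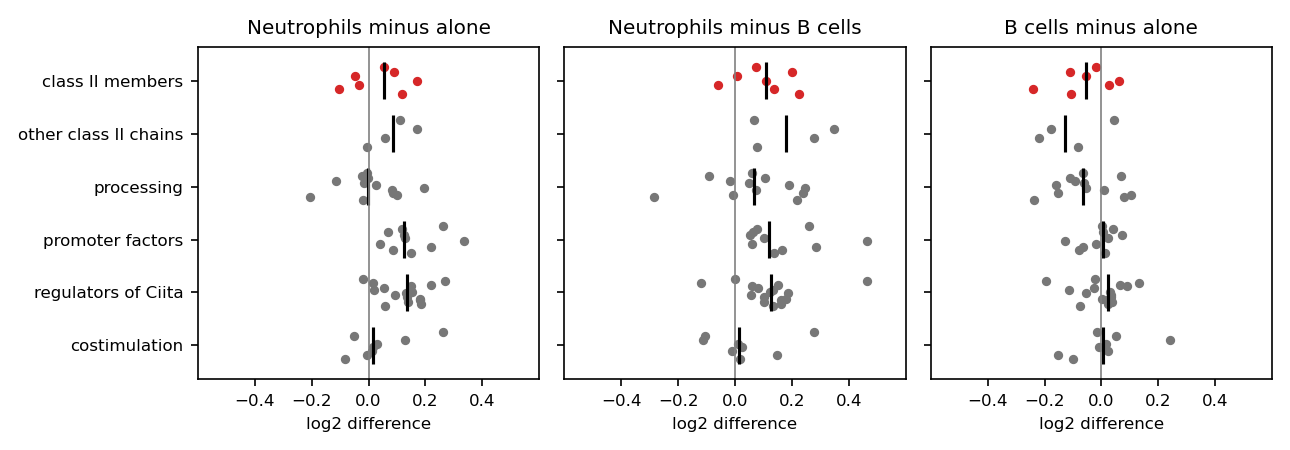
Log2 difference (x axis) of every measured gene of the class II list (red) and of 5 lists of genes around it (grey), by list (y axis), in the 3 comparisons; black bars are medians. None of these genes was called, and with neutrophils the medians of the promoter factors were 0.13 against alone and 0.12 against B cells.

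Regulators upstream of Ciita gave 0 called genes of 16 in any comparison in limma, with 2 higher at an unadjusted p under 0.05 for neutrophils against alone and 1 for neutrophils against B cells. Irf1, which interferon gamma uses to switch on Ciita, stood at 0.14 ± 0.11 against alone (adjusted p = 0.498) and 0.10 ± 0.11 against B cells (adjusted p = 0.548). Socs1, a feedback inhibitor of that signal, read 8.18 and 8.06 alone, 8.07 and 7.78 in B-cell co-culture and 8.40 and 8.39 in neutrophil co-culture. Neutrophil arrays were highest, by 0.27 ± 0.12 (adjusted p = 0.278) and 0.47 ± 0.12 (adjusted p = 0.147), and against B cells by 0.32 without B-cell replicate 2 (adjusted p = 0.452) and 0.61 without B-cell replicate 1 (adjusted p = 0.0184).

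The B-lineage factors that set Ciita on or off had differences short of the threshold. Pax5 stood at 0.06 ± 0.09 with neutrophils against alone (adjusted p = 0.748) and 0.08 ± 0.09 against B cells (adjusted p = 0.580). Irf4, a plasma cell factor, stood at 0.13 ± 0.10 (adjusted p = 0.481) and 0.19 ± 0.10 (adjusted p = 0.302). Prdm1, the repressor of Ciita, read 6.95 and 6.97 with neutrophils against 6.77 and 6.85 with B cells, a difference of 0.15 ± 0.09 (adjusted p = 0.344), and stood 0.22 ± 0.09 above culture alone (adjusted p = 0.268). It remained below the median of every array.

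Among the ligands that accompany class II at the contact with T cells, 0 of 8 were called in any comparison in limma, with 1 higher at an unadjusted p under 0.05 in each. Cd86, which binds CD28, stood at 0.00 ± 0.09 with neutrophils against alone (adjusted p = 0.986) and 0.15 ± 0.09 against B cells (adjusted p = 0.344). Cd40, the receptor of helper T cell CD40 ligand, stood at 0.01 ± 0.11 (adjusted p = 0.956) and -0.01 ± 0.11 (adjusted p = 0.962). Tnfsf9, the ligand of 4-1BB, read 7.94 and 8.10 alone, 7.99 and 8.02 in B-cell co-culture and 8.28 and 8.29 in neutrophil co-culture, which is 0.26 ± 0.10 above culture alone (adjusted p = 0.218) and 0.28 ± 0.10 above B cells (adjusted p = 0.201). Pdcd1lg2, the PD-1 ligand PD-L2, stood at 0.13 ± 0.09 (adjusted p = 0.457) and -0.11 ± 0.09 (adjusted p = 0.443). Its largest difference was that of B cells against alone, 0.24 ± 0.09 (adjusted p = 0.9999), without overlap of the arrays.

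The genes closest in pattern to the mean of H2-Aa, H2-Ab1 and H2-Eb1 were found among 11019 bright genes outside the lists, by the root mean square distance over 6 arrays after each gene was centred on its own mean. They were Snx8, a sorting nexin, at a distance of 0.009 log2, and 8430429K09Rik and Dolpp1, each at 0.014. The class II profile itself lay only 0.052 from a flat line, at 0.04 and 0.03 alone, -0.05 and -0.09 in B-cell co-culture and 0.01 and 0.05 in neutrophil co-culture, so likeness here is to a nearly flat pattern.

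Markers of other cells moved in part with the groups. Of 15 neutrophil genes 5 were called higher with neutrophils than alone and 1 higher than with B cells, and the list mean was 6.75 and 6.84 alone, 6.79 and 6.86 in B-cell co-culture and 7.26 and 7.29 in neutrophil co-culture. All 15 were positive against both other groups. The granule protein gene Ngp read 7.27 and 7.70 with neutrophils against 5.57 and 5.76 alone, the resistin-like gene Retnlg 7.32 and 6.49 against 5.66 and 5.76, and the surface gene Ly6g 5.98 and 5.76 against 5.60 and 5.74. Whether neutrophil RNA had a part in the class II values was not tested. Mature B cells express class II, and the mean of 12 mature B cell genes was 8.86 and 8.83 alone, 8.86 and 8.88 in B-cell co-culture and 8.82 and 8.83 in neutrophil co-culture, with 0 genes called in limma in any comparison (1 in each at an unadjusted p under 0.05). The mean of the class II genes was 9.13 and 9.10 alone, 9.08 and 9.02 in B-cell co-culture and 9.14 and 9.16 in neutrophil co-culture. Dendritic cell genes, 11 in number, had means of 7.56 on both alone arrays, 7.42 and 7.46 in B-cell co-culture and 7.48 and 7.47 in neutrophil co-culture, with 0 called in limma (1 to 3 a comparison at an unadjusted p under 0.05). Of 11 monocyte and macrophage genes 1 was called higher with neutrophils than alone and than with B cells: Ly6c2, a surface antigen of myeloid cells, read 7.14 and 7.12 with neutrophils against 5.71 and 5.75 alone. The mean of that list was 7.17 and 7.14 alone, 7.06 and 7.23 in B-cell co-culture and 7.25 on both neutrophil arrays. Most of the list did not go with Ly6c2. With neutrophils 4 genes were positive and 7 negative against culture alone (median -0.02), and 5 and 6 against B cells (median -0.03). Of 9 T and NK cell genes and 10 plasma cell genes 0 were called in limma in any comparison (0 to 2 and 0 to 1 a comparison at an unadjusted p under 0.05). The part of these cells in the class II values was not tested.

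**Figure D4:**
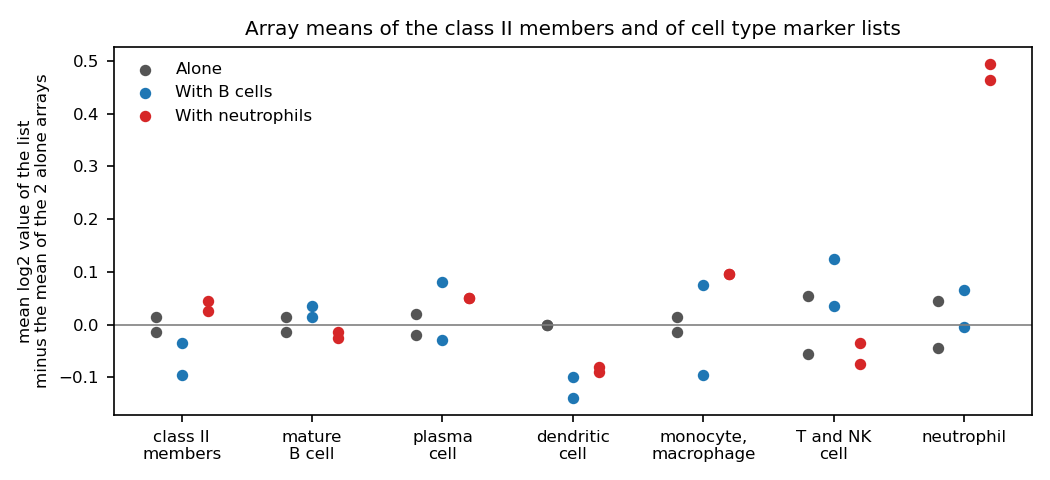
Mean log2 value of the class II genes and of 6 marker lists on each array, minus the mean of the alone arrays (y axis), by list (x axis); points are arrays, coloured by culture. The neutrophil list is higher on both neutrophil arrays (7.26 and 7.29 before subtraction), and the class II genes span 9.02 to 9.16.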

How the data were processed

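The authors deposited log2 values, 1 for each probe set and array, computed with RMA (background subtraction, normalisation between arrays and probe summary), per the submitters' processing notes; software version, further centring and genome build of the annotation are not given in the sources used here. Values ran from 3.04 to 14.03. RMA takes the arrays to have like distributions, which hides any shift common to most genes, and it compresses dim signals. Of 41345 probe sets 23521 were named with 1 gene, 1814 with several and 16010 were unnamed here. Groups came from the labels. limma 3.58.1 (R 4.3.3) fitted all 6 arrays with 3 residual and 5.55 prior degrees of freedom, moderated by eBayes; tests were two-sided and adjusted by Benjamini-Hochberg over 22180 genes. The number of arrays limits the precision. The procedure was tested on simulated data for neutrophils against alone, in 20 simulations with 200 of 22180 genes changed. It called 7.2% of the 1.25-fold changes, 78.6% of the 1.5-fold changes and 99.3% of the 2-fold changes. On average 9.32% of the calls were false at the adjusted p threshold of 0.05. Changes as small as those of the class II genes would thus seldom be called.

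The class II genes, the 5 pathway lists and the 6 marker lists were chosen with earlier results of these data known. From each pathway list the text names called genes, the 2 largest differences in each neutrophil comparison and fixed genes (H2-DMb1, Ctss, Ifi30, Rfx5, Irf1, Pax5, Irf4, Prdm1, Cd86, Cd40), and marker genes as examples chosen after their values were seen. The likeness profile left out Cd74. Alternatives were a brightness filter, eBayes settings, quantile normalisation, median centring, probe set means, fits of 4 arrays, the replicate block, the mean of 1394 receptor genes as a covariate, leaving out each array and another threshold. Plots used matplotlib 3.10.9 in Python 3.11.15.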

Additional observations from a re-analysis of the deposited data

Results flagged for a closer look

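Among the 7 measured genes of the list, H2-Aa was the 1 with both neutrophil arrays above and both B-cell arrays below the arrays cultured alone. H2-Eb2, a class II chain outside the list, had the same arrangement. The difference of H2-Aa between the co-cultures was tested and came to 0.22 (adjusted p = 0.238 in limma), which did not pass. It was 0.11 with quantile normalisation and 0.31 with median centring, without passing. The same arrangement of arrays was found in 694 of 22180 genes, or 3.13%. Groups of 2 arrays are too small for a test of outlying arrays.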

How the results depend on the processing

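Over the alternatives, 270 of the differences of class II genes kept direction and side of the threshold, 23 changed sign without passing and 1 came under the threshold (H2-Oa without B-cell replicate 1); for the named pathway genes in the neutrophil comparisons the numbers were 527, 44 and 7, all of the last without B-cell replicate 1. For neutrophils against B cells, 11 genes called became 30 with a threshold of 0.1, 91 with bright genes only, 33 with trend and robust eBayes, 7 with quantile normalisation, 135 with median centring, 1 with only 4 arrays, 0 with the receptor mean as a covariate, 299 with the block with crossed B-cell numbers (chosen after seeing the data), and 1 to 5453 without each array in turn (777 at an unadjusted p under 0.05 in limma where it was 0). For neutrophils against alone, 331 genes called became 750 with a threshold of 0.1, 90 with bright genes only, 70 with quantile normalisation, 581 with median centring, 1338 with only 4 arrays, 0 with the receptor mean as a covariate, and 5 to 1338 without each array in turn (1254 at an unadjusted p under 0.05 in limma where it was 0). For B cells against alone, 0 genes called became 1 with bright genes only, 1 with trend and robust eBayes, 3 with median centring. The count of called class II genes, 0 in each comparison, was 0 to 1 without each array in turn for neutrophils against B cells and 0 under every alternative run for the other comparisons. Adjusted p of these genes ranged from 0.0296 to 0.9997 for neutrophils against B cells, 0.172 to 1 for neutrophils against alone and 0.255 to 1 for B cells against alone. Deviations of arrays from their group means correlated weakly between groups by replicate number (-0.074, 0.065 and -0.151 over genes). With 2 arrays a group this cannot show whether arrays of the same number were prepared together, and the labels do not say. The replicate block gave 9, 373 and 0 calls and called no class II gene. With the receptor mean as a covariate the log2 difference changed sign for neutrophils against B cells Ciita -0.03, H2-Oa -0.16, H2-Ob -0.02, H2-DMb2 -0.07, H2-DMb1 -0.03, Ctsh -0.08, Ctss -0.27, Nfyb -0.13, Kat2b -0.02, Rfxap -0.04, Rfx5 -0.08, Irf1 -0.13; for neutrophils against alone Ciita -0.01, H2-DMa 0.37, H2-Oa -0.38, H2-Ob -0.07, H2-Eb2 -0.01, H2-DMb2 -0.39, Ctsl 0.16, Ctsh -0.23, Nfyb -0.44, Kat2b -0.11, Rfxap -0.21, Rfx5 -0.13, Socs1 -0.08, Irf4 -0.03, Irf1 -0.17, Cd40 -0.04; for B cells against alone H2-DMa 0.04. With quantile normalisation the log2 difference changed sign for neutrophils against B cells H2-Ob -0.03, Pax5 -0.01, Cd40 0.00; for neutrophils against alone H2-DMa 0.00, H2-Ob -0.02, H2-DMb1 0.08, Pax5 0.00, Cd86 0.04; for B cells against alone H2-Ob 0.01. With median centring the log2 difference changed sign for neutrophils against B cells H2-Eb1 0.03, Ifi30 0.07, Cd40 0.08; for neutrophils against alone H2-Eb1 0.03, H2-DMa 0.02, H2-DMb1 0.06, Ctss 0.05, Cd86 0.06. Leaving out each array changed the sign for neutrophils against B cells H2-DMa (-0.12 to 0.14), H2-Ea (0.00 to 0.14), Ctss (-0.02 to 0.46), Ifi30 (-0.04 to 0.00), Irf1 (-0.01 to 0.21), Cd40 (-0.04 to 0.02); for neutrophils against alone H2-DMa (-0.12 to 0.02), H2-DMb2 (-0.08 to 0.20), H2-DMb1 (-0.06 to 0.04), Ctss (-0.05 to 0.01), Cd86 (-0.03 to 0.03), Cd40 (-0.11 to 0.13); for B cells against alone H2-Eb1 (-0.01 to 0.06), H2-DMa (-0.19 to 0.08), H2-Oa (-0.30 to 0.07), H2-Ob (-0.06 to 0.02). The causes of these changes were not tested. Detection above background was not available per probe set.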
